A study of Homo sapiens with 6 samples.

Results

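Glypicans and syndecans are the families of proteoglycans that carry heparan sulfate at the cell surface, and their 10 human genes, GPC1 to GPC6 and SDC1 to SDC4, were followed here in a liver cancer cell line with and without overexpression of the long noncoding RNA LINC00862. The members were taken by gene name from a table of 35856 genes, and all 10 were in it. RNA was measured in HCCLM3, an established human hepatocellular carcinoma cell line, after transfection with an empty vector (Empty, labelled NC, 3 libraries) or with a LINC00862-vector (LINC00862, 3 libraries). The vector was pcDNA3.1 in the study's methods. The labels do not say whether the libraries of a group came from separate cultures, so p-values measure only the spread between these samples, which may be technical. Libraries held between 58241123 and 68229070 counts, and among the members the levels of GPC3, and of GPC4 and GPC5 in Empty, rested on fewer than 10 counts per library.

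Heparan sulfate is a long sulfated sugar chain that is built on a protein core in the Golgi and binds growth factors, morphogens and matrix proteins at the cell surface. Glypicans are held to the outer leaflet of the membrane by a glycosylphosphatidylinositol (GPI) anchor and can be cut from it, whereas syndecans cross the membrane and have a short cytoplasmic tail that binds PDZ proteins and the cytoskeleton. In liver, GPC3 is known as a fetal protein that returns in many hepatocellular carcinomas, and SDC1 is the best known proteoglycan of the hepatocyte surface.

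To place the genes whose levels differed most between the groups, the 250 bases before the RefSeq start (GRCh38.p14) are shown 5′ to 3′ for 5 members. GPC1 and SDC3 were lower in LINC00862 and GPC4 was higher, while GPC5 and GPC6 lie next to each other on chromosome 13 and differed in opposite directions. Capitals mark motif matches on either strand, which can overlap. The GC box was searched as GGGCGG, a site that zinc finger factors such as SP1 are known to bind. The TATA box was searched as TATAAA, the element that places the start of many regulated genes when it lies close to it. The search covered the whole window, so a match need not be that element. The E-box was searched as CACCTG, which repressors of the SNAI and ZEB families are known to bind.
GPC1 (chr2:240435413-240435662, plus strand): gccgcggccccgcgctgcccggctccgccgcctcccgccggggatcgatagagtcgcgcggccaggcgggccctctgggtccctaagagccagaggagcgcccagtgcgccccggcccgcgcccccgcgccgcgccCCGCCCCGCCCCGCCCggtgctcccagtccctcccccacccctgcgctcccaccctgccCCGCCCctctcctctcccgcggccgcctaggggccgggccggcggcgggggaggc
SDC3 (chr1:30908759-30909008, minus strand): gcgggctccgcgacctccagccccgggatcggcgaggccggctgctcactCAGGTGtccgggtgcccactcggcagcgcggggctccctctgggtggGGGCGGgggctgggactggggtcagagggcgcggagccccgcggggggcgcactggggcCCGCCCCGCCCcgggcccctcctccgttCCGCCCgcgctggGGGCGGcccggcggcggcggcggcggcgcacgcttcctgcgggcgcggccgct
GPC4 (chrX:133415490-133415739, minus strand): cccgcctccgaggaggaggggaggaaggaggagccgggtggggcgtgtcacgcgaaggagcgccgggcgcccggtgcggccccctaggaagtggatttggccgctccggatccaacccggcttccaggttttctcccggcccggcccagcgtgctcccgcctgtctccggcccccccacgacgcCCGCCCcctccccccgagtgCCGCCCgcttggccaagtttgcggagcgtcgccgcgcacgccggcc
GPC5 (chr13:91398371-91398620, plus strand): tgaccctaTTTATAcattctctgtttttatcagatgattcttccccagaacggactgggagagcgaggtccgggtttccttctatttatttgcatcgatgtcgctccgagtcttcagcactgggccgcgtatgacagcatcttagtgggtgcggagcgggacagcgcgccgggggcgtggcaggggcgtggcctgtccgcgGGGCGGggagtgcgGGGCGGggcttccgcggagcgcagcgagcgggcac
GPC6 (chr13:93226557-93226806, plus strand): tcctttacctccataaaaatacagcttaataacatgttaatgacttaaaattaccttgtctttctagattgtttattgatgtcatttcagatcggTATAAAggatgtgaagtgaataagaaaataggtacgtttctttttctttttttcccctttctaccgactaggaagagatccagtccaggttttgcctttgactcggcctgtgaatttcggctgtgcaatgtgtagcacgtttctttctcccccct

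The promoter table held 8 of the 10 members, and GPC3 and SDC2 were not among them. GPC1 had 84.0% G and C bases, 36 CpG dinucleotides and 4 GC boxes in its window. SDC3 was similar, at 83.6%, with 37 CpG dinucleotides, 5 GC boxes and 1 E-box. GPC4, which differed in the other direction, also had a window rich in G and C (76.0%), with 32 CpG dinucleotides and 2 GC boxes. GPC5 had 62.4% G and C bases, 25 CpG dinucleotides, 2 GC boxes and 1 TATA box. GPC6 stood apart from the others, with 37.6% G and C bases, 6 CpG dinucleotides, no GC box and 1 TATA box. Its start was also the exception in a check against GENCODE, made for a single start per gene. There the bases after the start were found in a transcript for the other 7 matched members and not for GPC6. The GPC6 start did equal the gene start in the deposited annotation. That held for 7 of the 9 RefSeq starts, and the 2 starts of SDC1 were the exceptions. Among 35116 promoter windows of the same length the median was 58% G and C bases and 11 CpG dinucleotides, and 42.6% held a GC box, 10.7% a TATA box and 17.5% an E-box. The TATA box matches of GPC5 and GPC6 lay nearer the far end of their windows than the start. These matches describe the letters of the windows, and no binding was measured.

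Most of the members differed between the groups. In edgeR's quasi-likelihood fit of the counts, adjusted over all tested genes after Benjamini and Hochberg, 8 of the 9 members that passed the filter on low counts were called at an adjusted p under 0.05, where 64.2% of the 20741 tested genes were called. GPC4 and GPC5 were higher in LINC00862, which makes 2 members beside 34.4% of all tested genes. Both passed the filter on low counts only through their LINC00862 libraries, so their direction among tested genes was set in advance. The other 6, GPC1, GPC6 and the 4 syndecans, were lower, beside 29.8% of all tested genes. GPC2 was tested and not called, and GPC3 failed the filter. The median log2 fold change of the 9 tested members, GPC4 and GPC5 included, was -0.70, and that of all tested genes was 0.11. Since most tested genes were called, the count of members called is no result by itself, and the size of each difference is given with its values. In bulk RNA, fewer cells of a type and less RNA per cell cannot be told apart.

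**Figure D1:**
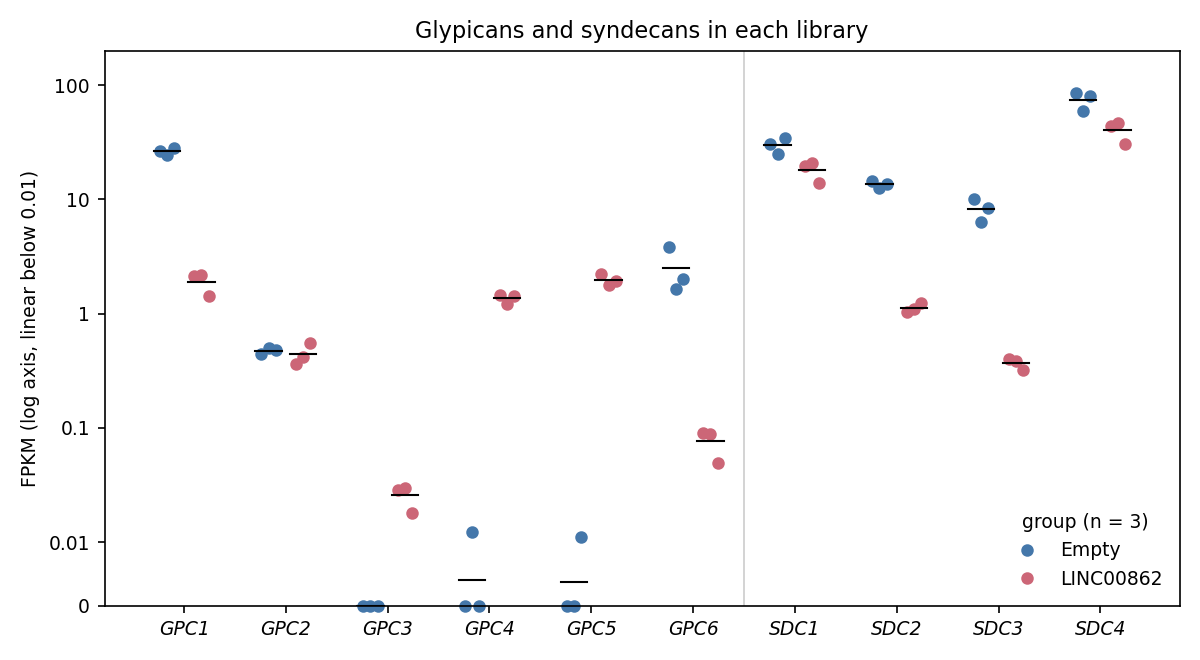
Deposited FPKM of each glypican and syndecan in the 3 Empty and the 3 LINC00862 libraries (points) with the group mean (line), on an axis that is logarithmic above 0.01 and linear below. GPC4 and GPC5 are at or near 0 in Empty and above 1 in LINC00862, while GPC1, GPC6, SDC2 and SDC3 lie far lower in LINC00862 and only GPC2 has groups that overlap.

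GPC1, the most abundant glypican in Empty, carries heparan sulfate and is known as a co-receptor for fibroblast growth factors. Its level was 26.5, 24.2 and 28.2 FPKM, the deposited level scaled for gene length and library depth, in Empty libraries 1 to 3. In LINC00862 it was 2.13, 2.18 and 1.42 FPKM. All LINC00862 libraries lay below all Empty libraries, with little spread within either group. The mean of 26.3 ± 1.98 (SD, n = 3) was 13.8 times that of LINC00862, 1.91 ± 0.425 (n = 3). On the log2 scale GPC1 fell by 3.62 (SE 0.18, adjusted p = 4.79e-07 by edgeR). GPC1 lay above 92.7% of the tested genes in Empty and above 54.2% in LINC00862.

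GPC6 is a glypican with a role in the growth of long bones through hedgehog signalling. Empty libraries held 3.79, 1.66 and 2.02 FPKM of it, which rest on 1789, 772 and 960 counts. LINC00862 libraries held 0.0912, 0.0890 and 0.0489 FPKM, from 50, 42 and 24 counts. The groups were far apart, although the first Empty library was well above the other two. GPC6 fell by 4.82 on the log2 scale (SE 0.37, adjusted p = 5.26e-06 by edgeR), and its mean FPKM in Empty was 32.6 times that in LINC00862. It was the glypican with the largest fall among those tested.

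GPC4 binds fibroblast growth factors and Wnt proteins and is known from stem cells and the developing nervous system. It had 0, 4 and 0 counts in the Empty libraries. In the LINC00862 libraries it had 557, 402 and 478 counts, or 1.47, 1.23 and 1.44 FPKM. It was thus all but absent from one group and present at a steady level in the other. The ratio of the pooled counts, each scaled by library totals, was 342, with a 95% counting interval of 133 to 1258. The fitted log2 fold change was 8.45 (SE 0.71, adjusted p = 9.37e-06 by edgeR), and without the second Empty library, the one with any counts, it was 11.96, a value set by the prior count of the fit.

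GPC5, which can carry both heparan sulfate and chondroitin sulfate, showed the same kind of pattern. Empty libraries had 0, 0 and 3 counts. LINC00862 libraries had 596, 415 and 454 counts, which gave 2.20, 1.77 and 1.92 FPKM. The scaled ratio of the pooled counts was 465, with a 95% counting interval of 159 to 2259. Counting intervals cover counting error only. The fitted log2 fold change was 8.84 (SE 0.66, adjusted p = 4.74e-06 by edgeR), and 11.98 without the third Empty library. In LINC00862 the mean level of GPC5, 1.97 ± 0.219 FPKM (n = 3), was close to that of GPC1, and the library ranges of these genes overlapped.

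GPC3, the glypican known as a marker of hepatocellular carcinoma, was close to absent from this carcinoma line in both groups. No count fell on it in any Empty library. The LINC00862 libraries had 7, 6 and 4 counts, at 0.0288, 0.0300 and 0.0181 FPKM. Pooled over the group, this was at least 5.40-fold higher than the 3 counts that a count of 0 allows in Empty. The gene failed the filter on low counts, and in a fit of every gene with at least 1 count its log2 fold change was 5.56 (adjusted p = 0.0470 by edgeR).

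GPC2, a glypican of the developing nervous system, did not pass the test. Its level was 0.447, 0.498 and 0.481 FPKM in Empty and 0.359, 0.417 and 0.550 FPKM in LINC00862. The LINC00862 libraries lay on both sides of the Empty libraries. The log2 fold change was 0.08 (SE 0.32, adjusted p = 0.840 by edgeR), a value that took the other sign under 5 of 13 alternative fits and was called under none of them.

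**Figure D2:**
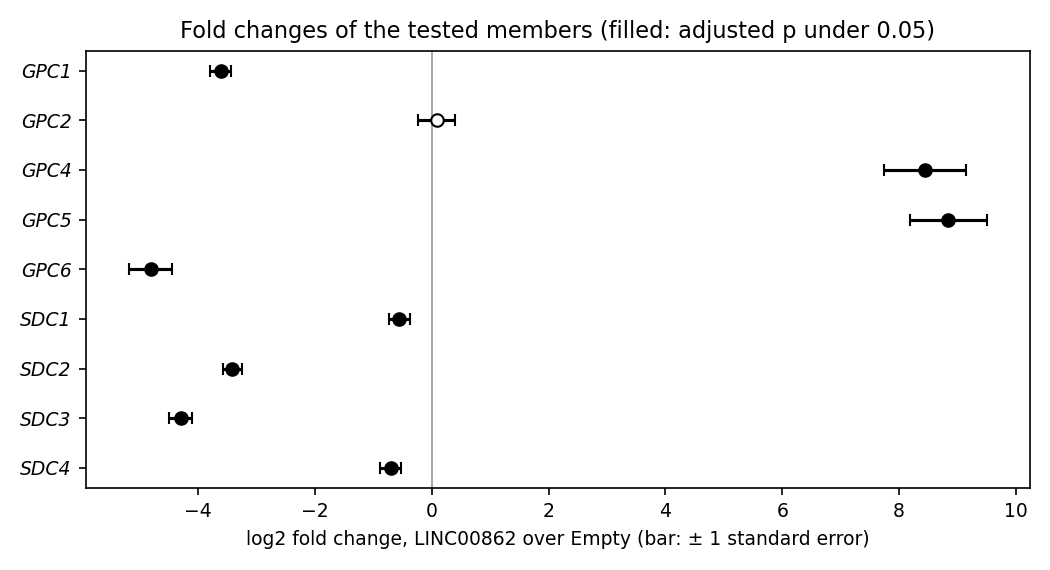
Log2 fold change (LINC00862 over Empty, horizontal axis) of the 9 tested members with ± 1 standard error, filled where the edgeR adjusted p is under 0.05. GPC4 at 8.45 and GPC5 at 8.84 lie to the right, 6 members lie to the left, from -4.82 for GPC6 to -0.56 for SDC1, and GPC2 lies at 0.08.

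All 4 syndecans were lower in LINC00862, but by very different amounts. SDC3, the largest syndecan core protein and best known from nerve and muscle, was at 10.1, 6.38 and 8.37 FPKM in Empty. The LINC00862 libraries held 0.402, 0.387 and 0.320 FPKM of SDC3. The groups were far apart, and the lowest Empty library was still many times above the highest LINC00862 library. SDC3 fell by 4.30 on the log2 scale (SE 0.19, adjusted p = 2.61e-07 by edgeR), and its mean in Empty was 22.4 times that in LINC00862. Its counts of 4732, 2943 and 3946 in Empty became 217, 181 and 152, so its low level in LINC00862 still rested on many counts in each library.

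SDC2, the syndecan of fibroblasts and other mesenchymal cells, had the tightest groups of its family. It was at 14.6, 12.7 and 13.6 FPKM in Empty. In LINC00862 it was at 1.04, 1.10 and 1.23 FPKM. The group means were 13.6 ± 0.951 (n = 3) and 1.12 ± 0.0998 (n = 3), a 12.1-fold difference. SDC2 fell by 3.41 on the log2 scale (SE 0.17, adjusted p = 3.81e-07 by edgeR). It lay above 85.7% of the tested genes in Empty and above 44.4% in LINC00862.

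SDC4, found in most tissues and a component of focal adhesions, was the member with the highest level in every library. Its Empty libraries were at 84.5, 58.9 and 79.6 FPKM. Its LINC00862 libraries were at 44.1, 46.9 and 30.8 FPKM. The groups did not overlap, but the gap between them was smaller than the spread within Empty. SDC4 fell by 0.70 on the log2 scale (SE 0.18, adjusted p = 0.00705 by edgeR).

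SDC1, the syndecan of epithelial cells and hepatocytes, differed least among the called members. Empty libraries were at 30.6, 24.8 and 34.5 FPKM. LINC00862 libraries were at 19.7, 20.8 and 13.9 FPKM. No library crossed over, though the second Empty library was near the top of the LINC00862 group. SDC1 fell by 0.56 on the log2 scale (SE 0.18, adjusted p = 0.0219 by edgeR). The direction held in the 13 alternative fits, but the call was lost with upper-quartile scaling (-0.35, adjusted p = 0.112), without the third Empty library (-0.40, adjusted p = 0.0676), without the third LINC00862 library (-0.44, adjusted p = 0.0820) and with the replicate number as a block (-0.56, adjusted p = 0.0626).

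Counted without a model, 9 of the 10 members had FPKM values that did not overlap between the groups, GPC2 being the exception, and 71.1% of all tested genes did not overlap. The exact two-sided permutation test of FPKM gave p = 0.1 for each of these 9 members, the smallest value that 3 libraries against 3 can give, and p = 0.6 for GPC2. Under limits like those of the study, a mean of at least 0.1 FPKM in both groups, a fold of at least 2 and an adjusted p under 0.05, 3 members were left: GPC1, SDC2 and SDC3. The share of all tested genes within those limits was 30.6%, and 16.0% were within them and lower in LINC00862. Where 0.1 FPKM was asked of at least 1 group, 6 members were within the limits. The share of all tested genes under this wider limit was not computed, so the count of 6 cannot be set against it. GPC4, GPC5 and GPC6 entered in this way, since each was under 0.1 FPKM in 1 group.

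FPKM is per length, so levels can also be compared between members. In Empty the order was SDC4 (74.3 FPKM), SDC1 (30.0), GPC1 (26.3), SDC2 (13.6), SDC3 (8.29), GPC6 (2.49) and GPC2 (0.475), followed by GPC4, GPC5 and GPC3 at or near 0. In this order SDC1 and GPC1 did not differ beyond the spread of their libraries, nor did the last 3 genes. In LINC00862 the order was SDC4 (40.6 FPKM), SDC1 (18.2), GPC5 (1.97), GPC1 (1.91), GPC4 (1.38), SDC2 (1.12), GPC2 (0.442), SDC3 (0.369), GPC6 (0.0764) and GPC3 (0.0256). Here the library ranges of GPC5 and GPC1, of GPC1 and GPC4, of GPC4 and SDC2, and of GPC2 and SDC3 overlapped. SDC4 and SDC1 led in both groups. By mean FPKM, GPC1, SDC2, SDC3 and GPC6 ranked lower in LINC00862 than in Empty.

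Summed over a family, the levels fell in both, with a change of makeup among the glypicans. The 6 glypicans summed to 29.3 ± 2.49 FPKM (n = 3) in Empty and to 5.80 ± 0.450 FPKM (n = 3) in LINC00862. GPC1 made up 89.9% ± 3.23 of that sum in Empty (SD, n = 3) and 32.8% ± 5.98 in LINC00862. The share of GPC5 was 33.9% ± 2.48 and that of GPC4 23.8% ± 2.64 in LINC00862, where in Empty they were at 0.0120% and 0.0155%. GPC6 went from 8.40% ± 3.41 to 1.31% ± 0.350. GPC2, with a steady level of its own, went from 1.64% ± 0.224 to 7.74% ± 2.28 as the sum around it fell. The glypican sum thus moved from 1 leading gene to 3 that made up most of it, with GPC4 below GPC5 in every LINC00862 library.

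**Figure D3:**
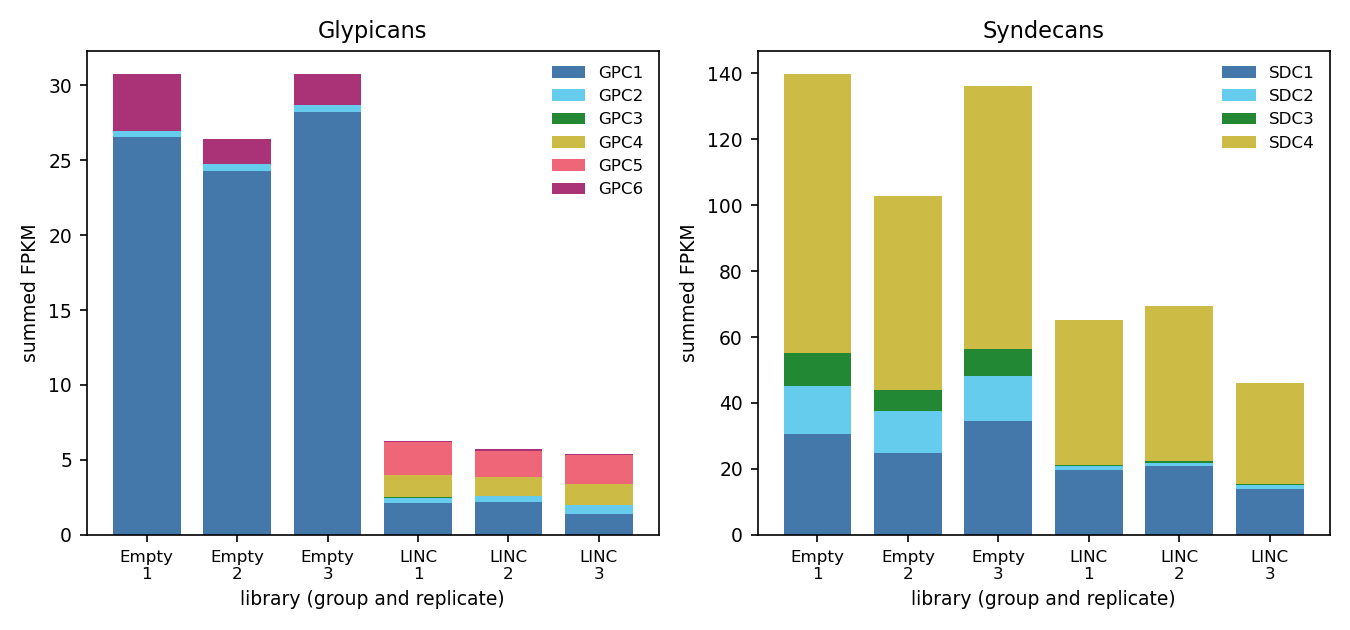
Stacked FPKM of the glypicans (left panel) and of the syndecans (right panel) in each of the 6 libraries, where LINC stands for LINC00862. GPC1 fills most of each Empty glypican bar, GPC1, GPC4 and GPC5 share the shorter LINC00862 bars, and SDC4 and SDC1 fill almost all of the LINC00862 syndecan bars.

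The syndecans summed to 126.2 ± 20.4 FPKM (n = 3) in Empty and 60.2 ± 12.3 FPKM (n = 3) in LINC00862. SDC4 made up 58.8% ± 1.59 and then 67.3% ± 0.633 of the sum. SDC1 made up 23.8% ± 1.77 and then 30.1% ± 0.107. SDC2 went from 10.9% ± 1.23 to 1.95% ± 0.623, and SDC3 from 6.53% ± 0.611 to 0.622% ± 0.0668. The syndecan pool of LINC00862 was therefore almost wholly SDC4 and SDC1.

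Ratios of members within a library do not depend on the scaling between libraries. SDC1 over SDC3 was 3.02, 3.89 and 4.12 in Empty and 49.2, 53.8 and 43.4 in LINC00862. SDC4 over SDC2 was 5.80, 4.65 and 5.85 in Empty and 42.5, 42.7 and 25 in LINC00862. These ratios were higher in every LINC00862 library. SDC4 over SDC1 moved far less in size, at 2.76, 2.37 and 2.31 against 2.23, 2.25 and 2.21. It was still lower in every LINC00862 library than in any Empty library. Among the glypicans, GPC1 over GPC2 was 59.3, 48.7 and 58.6 in Empty and 5.93, 5.23 and 2.58 in LINC00862. GPC1 over GPC6 was 6.99, 14.6 and 14.0 in Empty and 23.4, 24.5 and 29 in LINC00862. GPC5 over GPC4 was 1.5, 1.45 and 1.33 in the LINC00862 libraries.

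The places of the members in the genome set some of these values beside those of their neighbours. GPC5 (chr13:91398621-92873682) and GPC6 (chr13:93226807-94408020) follow each other on the plus strand (hg38), 353.1 kb apart, and differed in opposite directions. GPC4 (chrX:133300103-133415489) and GPC3 (chrX:133535745-133985594) are 120.3 kb apart on the minus strand. On the other side of GPC4, at 338.7 kb, lies HS6ST2, a 6-O-sulfotransferase of heparan sulfate. HS6ST2 had 10, 18 and 4 counts in Empty and 3217, 2960 and 2369 in LINC00862, a log2 fold change of 8.13 (SE 0.37, adjusted p = 2.78e-07 by edgeR). These 3 neighbours on chromosome X, HS6ST2, GPC4 and GPC3, all had more counts in each LINC00862 library than in any Empty library. For GPC3 these were only 7, 6 and 4 counts. Over all tested genes 71.1% had FPKM that did not overlap, a share that takes both directions together. AL009174, which overlaps GPC3 on the opposite strand, had 65, 108 and 122 counts in Empty and 102, 39 and 65 in LINC00862. It was not called (log2 fold change -0.46, adjusted p = 0.389 by edgeR).

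On chromosome 13, MIR17HG, the host gene of a microRNA cluster, lies 44.0 kb before GPC5. MIR17HG had 19, 51 and 14 counts in Empty and 197, 144 and 138 in LINC00862 (log2 fold change 2.57, SE 0.52, adjusted p = 0.00200 by edgeR). Within GPC5 the antisense gene GPC5-AS2 had no count in Empty and 13, 10 and 12 in LINC00862. GPC5-IT1, on the strand of GPC5, had no count in Empty and 12, 26 and 12 in LINC00862. The library kit marks strand, but the sources used here do not give whether the counting used it, so reads of GPC5 and its antisense genes may not be told apart. AC110619, which overlaps GPC1 on the opposite strand, had 7, 4 and 2 counts in Empty and 107, 104 and 83 in LINC00862, the reverse of the direction of GPC1. SDC2 on chromosome 8 lies between PTDSS1 and CPQ, and all 3 were lower in LINC00862, PTDSS1 by a log2 fold change of -0.99 (adjusted p = 0.000931 by edgeR) and CPQ by -1.84 (adjusted p = 0.000859 by edgeR).

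Genes that build, edit, anchor or read the chains of these proteoglycans were grouped in 13 lists of 118 genes, of which 106 were tested. In the same edgeR fit 32 of them were higher, 53 lower and 21 not called, beside 34.4% higher and 29.8% lower over all tested genes. The enzymes of the linker that joins the chain to a core protein were mostly lower, 5 of 6, with XYLT2, which adds the first sugar, at -1.53 on the log2 scale (adjusted p = 2.5e-05). All 4 tested genes of the polymerization list were lower too, and EXT1, a subunit of the main polymerase, fell by 0.87 (adjusted p = 0.00139). EXTL3 was called with groups that overlapped in FPKM (adjusted p = 0.0429), and none of the 4 was called against a fold of 2. The median log2 fold change was -1.15 for the linker list and -0.89 for the polymerase list.

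The enzymes that modify the chain, the sulfotransferases and an epimerase, went in both directions, with 5 of 10 higher, 1 lower and 4 not called. NDST1, the main N-sulfotransferase, fell by 3.01 (adjusted p = 6.28e-06), from 15.2 ± 5.34 to 1.66 ± 0.332 FPKM (n = 3 each). NDST4, of the same family, had no count in Empty and was at least 299.5-fold higher in LINC00862, at 1.21 ± 0.0924 FPKM. HS3ST3B1, a 3-O-sulfotransferase, was higher by 5.72 (adjusted p = 8.47e-07), as was HS6ST2. Outside the cell, SULF2, which removes 6-O-sulfates, fell by 5.11 (adjusted p = 1.32e-07) and HPSE, the heparanase, fell by 5.22 (adjusted p = 6.02e-07), which makes 2 of 3 tested members lower and none higher. Among suppliers of sugar and sulfate donors 4 of 7 were higher and 2 lower, with UGDH at 2.93 and PAPSS1 at -2.06 (adjusted p = 3.41e-07 and 4.52e-06). Of 8 lysosomal enzymes that break the chain down 5 were higher and 2 lower, with ARSG at 2.35 and IDS at -2.04 (adjusted p = 0.000207 and 1.46e-05).

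Other proteoglycans that can carry heparan sulfate followed the syndecans rather than GPC4 and GPC5 in direction, with 7 of 10 lower and none higher. They included the basement membrane genes HSPG2 (-4.34) and COL18A1 (-4.61), the co-receptor TGFBR3 (-4.97), CD44 (-3.19), SRGN (-3.34) and SPOCK1 (-7.28), with adjusted p between 2.45e-07 for COL18A1 and 2.93e-06 for TGFBR3. Genes that attach or cut the GPI anchor of glypicans had 4 of 9 higher and 2 lower. NOTUM, a lipase that can release glypicans, was higher by 4.41 (adjusted p = 4.11e-06), and GPLD1, a phospholipase D, by 3.74 (adjusted p = 0.0157) from only 6 counts in Empty. Proteases that shed syndecans or process glypicans had 2 of 7 higher and 2 lower. MMP7, which can cut SDC1, was higher by 7.13 (adjusted p = 3.77e-07), PCSK6 was higher by 6.45 (adjusted p = 6.11e-05), and MMP14 fell by 5.97 (adjusted p = 6.47e-08).

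Partners of the syndecan tail had 7 of 9 lower and 2 higher, among them EZR, which links membrane proteins to actin (-3.15, adjusted p = 2.11e-07), ACTN1 (-2.79, adjusted p = 6.87e-07) and TIAM1 (-7.28, adjusted p = 9.26e-05). Heparin-binding growth factors had 5 of 9 lower (MDK, PTN, HBEGF, FGF2 and PDGFB) and 4 higher, with FGF2 at -6.21 (adjusted p = 1.59e-07), VEGFA at 2.32 (adjusted p = 3.49e-06) and AREG at 3.06 (adjusted p = 5.06e-07). HGF rose from 4 counts to 842, and PTN fell from 878 counts to 4. In the hedgehog pathway, to which GPC3, GPC5 and GPC6 are tied, 8 of 11 were lower, SMO, GLI1, GLI2, GLI3, BOC and GAS1 by more than 4-fold, and SHH, a ligand of the pathway, was higher. Of the chondroitin sulfate enzymes 4 of 13 were higher, with CSGALNACT1 at 4.50 (adjusted p = 1.4e-07), and 6 lower, with CHST3, CHST13, CHST14 and DSE past 4-fold.

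Markers of cell state moved between the groups together with the members. The labels' check, LINC00862 itself, had 11, 21 and 6 counts in Empty and 145, 121 and 76 in LINC00862 (log2 fold change 3.22, adjusted p = 0.000583 by edgeR). Of 10 mesenchymal markers 7 were lower and 1 higher, and their summed level was 572 to 631 FPKM in Empty and 15.3 to 19.7 in LINC00862. VIM made up most of the sum in Empty, and COL1A1, the marker called higher, most of it in LINC00862. Of 8 epithelial markers 6 were higher and 1 lower, with sums of 195 to 288 and 486 to 558 FPKM. All 6 proliferation markers were lower, with sums of 529 to 560 and 87.3 to 102 FPKM. The hepatocyte list had 7 of 9 tested genes higher and 2 lower, and its sum, mostly FGB, was 3.05 to 3.60 FPKM in Empty and 539 to 619 in LINC00862. In Empty, TTR was at 0 in all libraries and ALB in all but 1, and ALB had a mean of only 1.51 FPKM in LINC00862. The 2 markers called lower were AFP, at 0 in all LINC00862 libraries, and SERPINA1. SERPINA1 had a mean of 1.29 FPKM in Empty and 0.0950 FPKM in LINC00862. Of 5 tested endothelial and 4 tested leukocyte markers, 1 each was called, both higher. The part of these changes in the levels of the glypicans and syndecans was not tested, and a response to LINC00862 and a difference between the cells of the groups cannot be told apart.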

How the data were processed

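RNA was sequenced from 6 HCCLM3 libraries with poly(A) selection, a kit that marks strand, and molecular identifiers in the adapters. For each gene the authors deposited a read count and an FPKM value per library. The submitters' processing notes name cutadapt 1.9, HISAT2 2.0.4, UMI-tools, StringTie 1.3.4d, DESeq2, edgeR and the build hg38, and their roles are not given in the sources used here. Counts were tested with edgeR 4.0.16 in R 4.3.3 (TMM scaling, filterByExpr, glmQLFit and glmQLFTest), with Benjamini-Hochberg adjustment over all 20741 tested genes. FPKM was used for levels, sums and ratios. Standard errors came from the F statistic. In data simulated for LINC00862 against Empty over 20106 genes, 194 genes carried a difference. The edgeR fit recovered 39.2% of the 2-fold and 77.3% of the 4-fold differences, and it called 2 genes with none. In the libraries themselves 64.2% of the tested genes were called. The simulation therefore does not give the rate of false calls where most genes differ.

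The members and lists were chosen with earlier results of these data known. Named beside the members were the genes of each list with an adjusted p under 0.05 and a fold of at least 4, the gene with the lowest p in a list without one, neighbouring genes, markers at 0 or with high levels, and LINC00862, apart from some genes that are not reported here. Alternatives were DESeq2 1.42.0, limma 3.58.1 on log2(FPKM + 1) and log2(FPKM + 0.1), other scalings, no filter, stricter limits, a replicate block and leaving out each library. Replicates of a group differed by more than counting noise, with a chi-square per gene of at least 17.6, so none was counted as a repeat of another. Promoters were matched by gene symbol to RefSeq.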

Additional observations from a re-analysis of the deposited data

How the results depend on the processing

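GPC1, GPC4, GPC5, GPC6, SDC2, SDC3 and SDC4 kept direction and call under 13 alternative fits, and tested against a fold of 2 only SDC1 and SDC4 of the called members were lost. The call of SDC1 was lost under 4 of them, as given with its values, and its direction held. GPC2, never called, turned negative by library size alone (-0.089), in limma with a pseudocount of 1 (-0.035) or 0.1 (-0.10), without Empty replicate 1 (-0.003) and without LINC00862 replicate 3 (-0.17), and ranged up to 0.23 as single libraries were left out. Tested against a fold of 2, 8010 genes were called, 3204 of them lower, and 20 pathway genes higher. Asking 0.1 FPKM of at least 1 group left 6 members within the limits instead of 3, with no share over all tested genes computed for that limit. Leaving out 1 library gave 12063 to 14285 calls, 7 to 8 members called, a log2 fold change of 7.86 to 11.96 for GPC4 and of 8.27 to 11.98 for GPC5. On log2(FPKM + 1) GPC4 was 1.24 and GPC5 1.56, since the pseudocount lies near their levels. The median log2 fold change over all genes was 0.11 (edgeR, TMM), 0.32 (upper quartile) and -0.05 (library size), and 0.16 in DESeq2, where scaling and model both differ.

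Replicate numbers gave no pairing (correlations of same-numbered deviations -0.05, -0.03 and -0.007), and a fit with the replicate block called 12098 genes. It changed the call of 1 tested member, SDC1. Among the lists, lysosomal breakdown varied from 2 to 6 genes higher and GPI anchoring from 1 to 4, and heparan sulfate modification from 1 to 3 lower. With library size alone, 2 genes of sugar and sulfate donor supply were called higher instead of 4. The cause of these changes was not tested. Counts under 10 per library limit GPC3, and GPC4 and GPC5 in Empty.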
